A study of Homo sapiens with 4 samples.

Results

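The 10 genes described here encode enzymes that make serine, one-carbon folate units, asparagine and proline, together with PCK2. They were PHGDH, PSAT1, PSPH, SHMT1, SHMT2, MTHFD1, MTHFD2, ASNS, PYCR1 and PCK2. The array held 13 probe sets whose annotation named 1 of them alone, of 22215 probe sets that are no controls. Every one of the 13 is reported. The genes were chosen with the difference between the groups already known, so their own differences are given as a description and carry no test.

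The cells were LNCaP, a line from a human prostate cancer that responds to androgen, grown in medium with 10% FBS. Cells received a MED1 expression vector (the MED1 samples) or the empty vector (the controls) with Lipofectamine, and RNA was collected 24 hours later. MED1 is a subunit of Mediator, which connects transcription factors to RNA polymerase II. There were 2 arrays per group, 4 in all. Both groups are 1 cell line, and the share of cells that took up a vector is not given in the sources used here. The titles and the transfection labels of the empty vector samples name the empty vector, while their free-text description names the MED1 vector; the titles were followed.

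Serine is built from a glycolytic intermediate in the cytosol by PHGDH, PSAT1 and PSPH in turn. Serine hydroxymethyltransferases then split it to glycine and pass a carbon to folate, and MTHFD enzymes interconvert the carbon-carrying folates that purine and thymidylate synthesis draw on. Folate steps run both in mitochondria, with SHMT2 and MTHFD2, and in the cytosol, with SHMT1 and MTHFD1. When amino acids run short, the transcription factor ATF4, often with a C/EBP partner, raises many of these genes together with ASNS, PYCR1 and PCK2.

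The promoters of ASNS and PCK2, the members whose differences were largest beside their replicate spread, are shown first, because ASNS carries a known amino acid response element there. RefSeq (GRCh38.p14) windows of 250 bases before to 50 after a start site were held for 7 of the 10 genes, in 8 windows. They were searched on both strands for the C/EBP-ATF composite motif TGATGNAA, whose reverse complement is TTNCATCA. Of the 8 windows 1 held it, the upstream one of the pair of ASNS windows. The motif was in 3.62% of all 35116 windows, and in 2.45% of the 14058 windows of genes named alone on the array. The 250 bases before the ASNS start at chr7:97872409-97872658 (minus strand) are given 5′ to 3′ with the motif in capitals. Its first base lies 68 bases before the start, within what is known as the nutrient-sensing response element of ASNS. The 250 bases before the PCK2 start at chr14:24094061-24094310 (plus strand) hold no match, which says only that these letters are absent from that window.
ASNS: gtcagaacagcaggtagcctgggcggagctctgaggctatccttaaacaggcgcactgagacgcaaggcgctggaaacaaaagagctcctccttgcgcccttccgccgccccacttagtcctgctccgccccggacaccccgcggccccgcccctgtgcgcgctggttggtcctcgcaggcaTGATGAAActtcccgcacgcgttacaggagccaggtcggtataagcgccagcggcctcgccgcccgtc
PCK2: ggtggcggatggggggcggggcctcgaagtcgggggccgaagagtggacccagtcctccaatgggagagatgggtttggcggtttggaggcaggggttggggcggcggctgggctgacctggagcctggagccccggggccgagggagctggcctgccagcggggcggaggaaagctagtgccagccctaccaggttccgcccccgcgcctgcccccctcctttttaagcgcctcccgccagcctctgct

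Across the array, 20 genes were called lower in the MED1 samples, and 17 of these had a promoter window. The motif was in the windows of 4 of the 17 genes (23.5%), against 328 of 9563 array genes with a window (3.43%). A gene can have several windows. Counted by window, the motif was in 4 of 34 (11.8%), against 345 of 14058 (2.45%). The 17 genes were chosen by their difference, and the counts are given as a description. Beside ASNS, the genes with the motif were CARS1, the cytosolic cysteinyl-tRNA synthetase, CHAC1, which degrades glutathione, and CEBPG, a C/EBP family partner of ATF4. The 30 bases around each match are shown in the same orientation as the gene, with the match in capitals. CARS1 and CHAC1 carried the reverse form TTGCATCA, at chr11:3057407-3057436 (minus strand) and chr15:40953251-40953280 (plus strand). CEBPG carried TGATGCAA, at chr19:33374060-33374089 (plus strand), and ASNS carried TGATGAAA, at chr7:97872458-97872487 (minus strand). A match is not evidence that a factor was bound in these cells.
ASNS: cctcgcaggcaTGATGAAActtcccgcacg
CARS1: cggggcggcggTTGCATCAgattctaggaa
CHAC1: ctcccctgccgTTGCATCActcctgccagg
CEBPG: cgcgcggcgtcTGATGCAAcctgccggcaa

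Signals are MAS5 intensities on a linear scale, and levels are not compared between probe sets. The median signal of the arrays was 77.4 to 83.2, and Pearson's r across the tested probe sets was 0.985 to 0.992 between any pair of arrays, across probe sets that are not independent. The MED1 transcript itself was called higher by 1 of its probe sets, which read 559 and 807 in the MED1 samples against 292 and 315 with the empty vector, and a brighter one read 1172 and 1074 against 1097 and 1011. For actin, the control probe sets at the 3′ end read 9.40 and 9.32 times those at the 5′ end with MED1, and 8.14 and 9.45 times with the empty vector. For GAPDH these ratios were 1.16 and 1.24 with MED1, and 1.16 and 1.27 with the empty vector. Their part in the results was not tested. All 11 probe sets of 7 luminal prostate markers were bright enough to be tested, with mean signals from 189 to 8075, and summed to 27323 to 29571 in the MED1 samples and 29371 to 31447.5 with the empty vector. Those of 5 leukocyte and endothelial genes reached at most 22.2, and summed to 60.5 to 95.3 in the MED1 samples and 57.7 to 127 with the empty vector. The sums were 90.8 to 106 and 72.9 to 150.2 for basal prostate markers, and 180.0 to 324 and 201 to 323 for fibroblast markers.

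Changes are differences in log2(signal + 16), MED1 minus empty vector, with the standard error (SE) from limma. Probe sets whose mean signal lay under the 40th percentile, 32.2, were left out of that fit. Of the members, 12 of 13 probe sets passed this filter, and they stood for 9 of the 10 genes. In 11 of the 12 both MED1 samples read lower than both empty vector samples, as did 22.6% of the 13329 tested probe sets. Of the 12, 2 passed an adjusted p of 0.05 (limma, Benjamini-Hochberg over all tested probe sets), those of ASNS and PCK2, and both were lower; 0.308% of all tested probe sets passed, and 0.188% passed as lower. Nothing is read from these counts, because the same difference was known when the genes were chosen. Some of the luminal markers were lower as well. By the brightest probe set of each of the 7 genes, 0 passed (limma). An unadjusted p under 0.05 was reached by 1 of the 7, and by 9.19% of all tested probe sets (limma). Both MED1 samples read lower in 4, and the median log2 change was -0.11. HOXB13, at 0.10 ± 0.12 (SE), and KRT18, at 0.03 ± 0.11, lay above 0 with overlapping groups. TMPRSS2, an androgen-regulated protease, gave -0.31 ± 0.10 (SE) by its brighter probe set and 0.17 ± 0.13 by the other, and the 3 probe sets of the kallikrein KLK2 gave -0.11 ± 0.10, -0.29 ± 0.10 and -0.43 ± 0.18. Their part in the members' values was not tested. RNA came from whole cultures, so a smaller share of cells with a transcript and less of it per cell cannot be told apart.

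**Figure D1:**
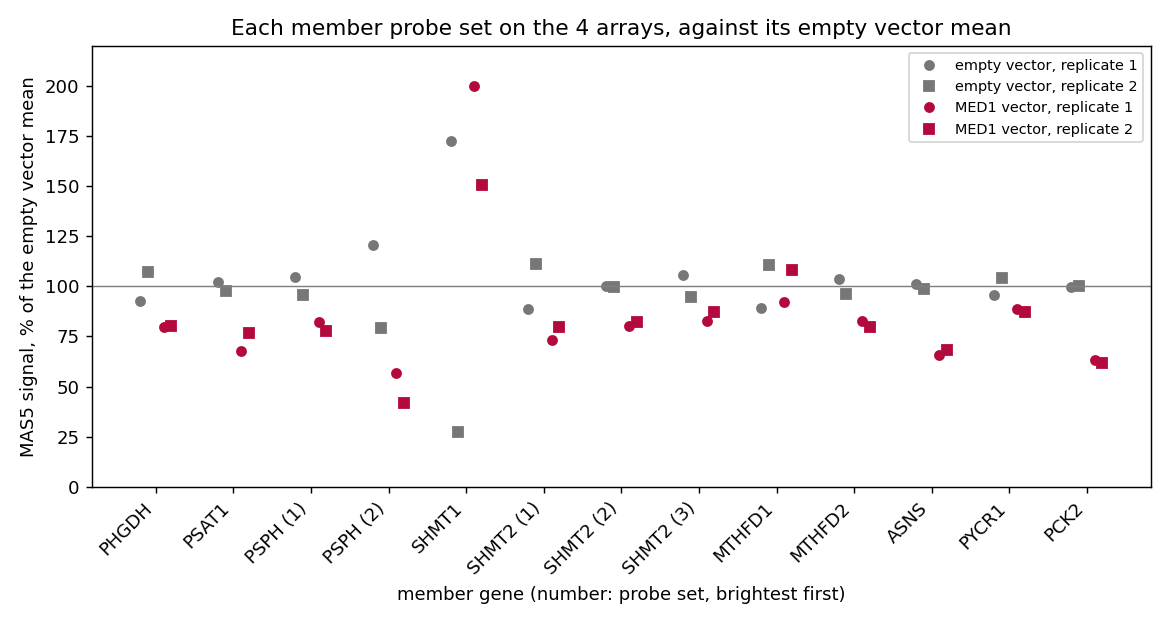
MAS5 signal of each of the 13 member probe sets on each of the 4 arrays, as a percent of that probe set's mean in the controls (100 marks that mean). Circles are replicate 1 and squares replicate 2; numbers in brackets order the probe sets of 1 gene by signal. PCK2 sits at 63.4 and 61.9 in the MED1 samples and ASNS at 65.8 and 68.2, while the MTHFD1 points of the groups overlap.

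PCK2, the mitochondrial phosphoenolpyruvate carboxykinase, which turns oxaloacetate into phosphoenolpyruvate, showed the largest difference among genes with 1 probe set. It read 1079 and 1053 in the MED1 samples against 1695 and 1705 in the controls. Both MED1 samples lay far below both controls, and the replicates of each group were close to each other. The means were 1066 ± 18.1 and 1700.3 ± 6.80 (SD, n = 2), a log2 change of -0.67 ± 0.09 (SE), or a level of 0.630 times the control. Of all tested probe sets, 1.04% had a lower value.

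ASNS, which makes asparagine from aspartate and glutamine, read 2455 and 2547 in the MED1 samples against 3778 and 3690.2 in the controls. The groups did not overlap, and the spread within each was small beside the gap. The means were 2501 ± 65.1 and 3734 ± 61.8 (SD, n = 2), a log2 change of -0.58 ± 0.09 (SE), or 0.671 times the control. The probe sets of ASNS and PCK2 no longer passed the threshold when dim probe sets were kept, when the variance trend was dropped, without empty vector replicate 1 or without empty vector replicate 2, although their changes stayed between -0.60 and -0.55 and between -0.68 and -0.64 under every setting tried.

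The serine pathway enzymes were all lower, with log2 changes from -0.99 to -0.32 over their 4 probe sets. PHGDH, which commits the glycolytic intermediate to serine, read 2149 and 2166 in the MED1 samples against 2504 and 2899 in the controls. The MED1 replicates nearly coincided, the controls were further apart, and the groups did not overlap. Its log2 change was -0.32 ± 0.10 (SE), or 0.802 times the control. A further probe set that lists PHGDH together with MZT2A and MZT2B gave 0.05 and is not assigned to any of the 3.

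PSAT1, the aminotransferase of the second step, read 289.9 and 330.4 in the MED1 samples against 438 and 420.4 in the controls. Both MED1 samples were lower than both controls, and the log2 change was -0.45 ± 0.12 (SE), or 0.731 times the control. PSPH, the phosphatase that releases serine, was measured by 2 probe sets, which were both lower and differed in size. The brighter read 1834 and 1729.8 against 2327 and 2125, a log2 change of -0.32 ± 0.10 (SE), and the dimmer read 922 and 678 against 1961 and 1287, a change of -0.99 ± 0.20 (SE). The dimmer one also had the wider spread between replicates, with an SD of 172 in the MED1 samples and 477 in the controls. It had the largest change of all member probe sets and did not pass the threshold, though it passed on leaving out either MED1 array or the second empty vector array (values from -1.29 to -0.69 over all settings).

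**Figure D2:**
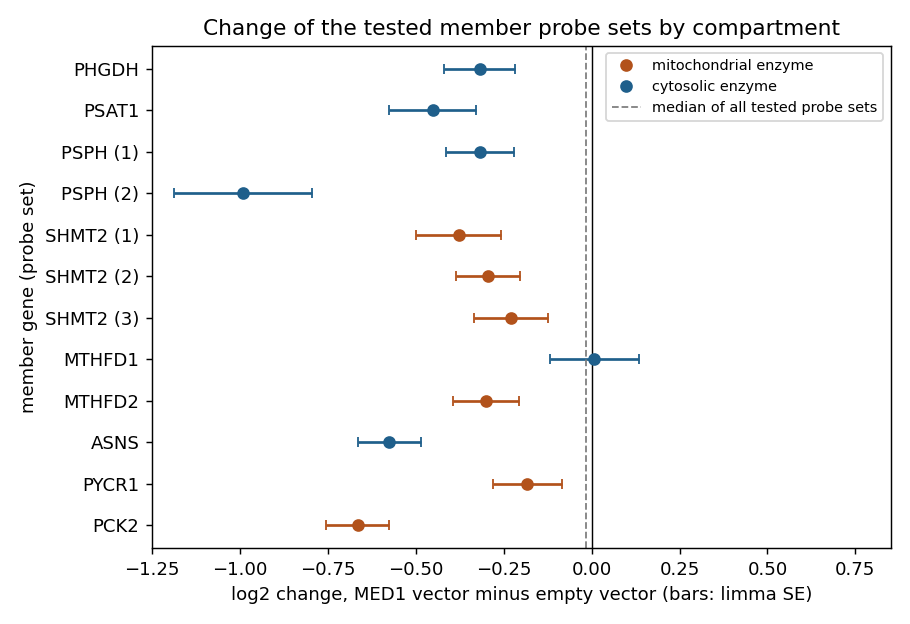
Change of the 12 tested member probe sets in log2(signal + 16), MED1 vector minus empty vector; points are changes, bars the limma SE, and the dashed line the median of all tested probe sets at -0.02. Mitochondrial enzymes (orange) lie from PCK2 at -0.67 to PYCR1 at -0.18, and cytosolic enzymes (blue) from the dimmer PSPH probe set at -0.99 to MTHFD1 at 0.01, the point nearest to no change.

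In the folate steps the mitochondrial enzymes were lower, and the cytosolic enzyme with a tested probe set, MTHFD1, was not. SHMT2, the mitochondrial serine hydroxymethyltransferase, was lower by each of its 3 probe sets. The brightest read 3748 and 4082 in the MED1 samples against 4545 and 5701 in the controls. The next read 1118 and 1148 against 1398 and 1389, and the dimmest 700.4 and 737 against 893 and 799. In none of the 3 did the groups overlap, and the log2 changes were -0.38 ± 0.12, -0.30 ± 0.09 and -0.23 ± 0.10 (SE).

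MTHFD2, the mitochondrial methylenetetrahydrofolate dehydrogenase and cyclohydrolase, read 4173 and 4024 in the MED1 samples against 5242 and 4864 in the controls. Its groups did not overlap, and its log2 change was -0.30 ± 0.09 (SE), or 0.812 times the control. MTHFD1, the cytosolic enzyme that combines these steps with the making of formyl folate, read 2773 and 3251 against 2683 and 3322. Its replicates differed more than its groups, with means of 3012 ± 338 and 3003 ± 451 (SD, n = 2) and a log2 change of 0.01 ± 0.13 (SE).

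The change of MTHFD2 was lower than that of MTHFD1 by a log2 difference of -0.31. Taken array by array, the difference between the pair of probe sets had an SD of 0.20 in the MED1 samples and 0.29 in the controls, and the groups overlapped, so this contrast lay within the spread between replicates. It ranged from -0.52 to -0.10 over 11 settings, and kept its sign in each.

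SHMT1, the cytosolic serine hydroxymethyltransferase, could hardly be set beside SHMT2. Its only probe set of its own was dim and untested, reading 23.8 and 17.9 in the MED1 samples against 20.6 and 3.24 in the controls. The groups overlapped, and 1 empty vector sample stood low. The change of SHMT2 minus that of SHMT1 was -0.85; it was -0.22 without empty vector replicate 2, the low sample, and -1.56 with a pseudocount of 1. A brighter probe set that lists SHMT1 together with the microRNA MIR6778 was not assigned to either. It read 489 and 499 in the MED1 samples against 507 and 583 in the controls, a log2 change of -0.13 ± 0.11 (SE). The change of SHMT2 minus that of this probe set was -0.25. Taken array by array, this difference was 2.90 and 2.99 against 3.13 and 3.26, without overlap. With the dim SHMT1 probe set it was 6.56 and 6.92 against 6.96 and 8.21, also without overlap.

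PYCR1, the mitochondrial reductase that completes proline, read 919 and 901 in the MED1 samples against 994 and 1079 in the controls. The groups were close without overlapping. With a log2 change of -0.18 ± 0.10 (SE), or 0.881 times the control, it had the smallest difference among the genes that were lower.

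Compartment did not order the 9 tested genes as a whole, which leave out SHMT1. The 4 mitochondrial enzymes, PCK2, SHMT2, MTHFD2 and PYCR1, had a median log2 change of -0.34 (range -0.67 to -0.18), by the brightest probe set of each gene. The 5 cytosolic enzymes with a tested probe set had a median of -0.32 (range -0.58 to 0.01). The difference of the medians was -0.02, and it turned to 0.15 with the probe sets of a gene averaged and to 0.10 without empty vector replicate 2. The enzymes of serine and asparagine synthesis, which are cytosolic, thus lay among the mitochondrial ones, and MTHFD1 alone of the tested genes lay near 0. Over the 9 tested genes the median was -0.32, and over all tested probe sets it was -0.02.

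**Figure D3:**
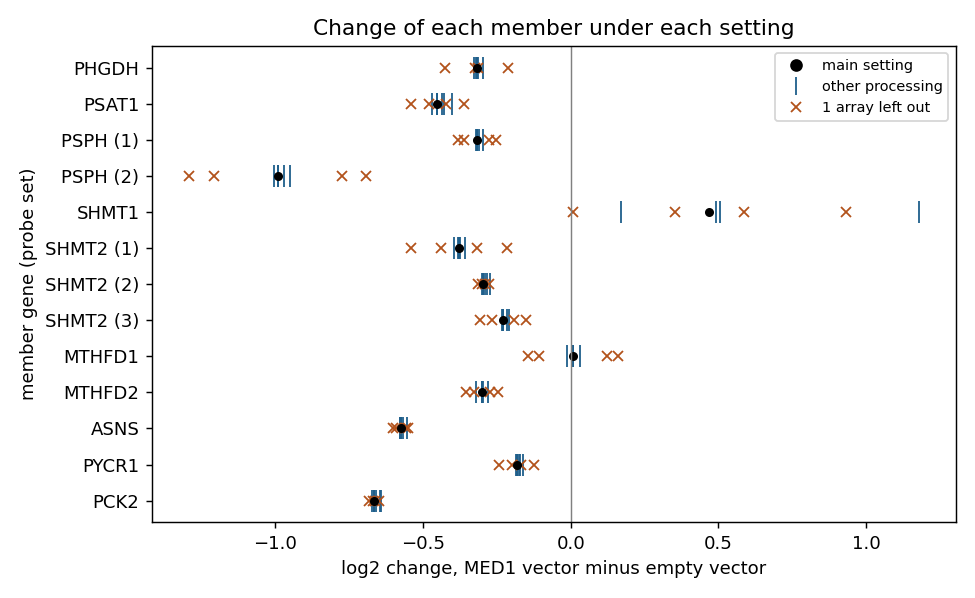
Log2 change of each member probe set under the main setting (black points), under other processing (blue ticks) and with 1 array left out (orange crosses). Apart from SHMT1 and MTHFD1, each of the 11 probe sets stayed below 0 under every setting tried; the probe set of PCK2, the second brightest of SHMT2 and that of ASNS moved least over all settings, and the dimmer PSPH probe set and SHMT1 moved most with an array left out.

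Other genes of the same pathways were compared as well. They are what is left of these pathways once the members were taken out, and the lists were chosen with earlier results of these data known. The counts, medians and p-values of these lists are therefore a description. These genes were tested with the same fit, each by its brightest tested probe set, at a threshold that 0.308% of all tested probe sets passed. An unadjusted p under 0.05 was reached by 9.19% of them. Among 14 tested genes of folate and serine metabolism 0 passed, and 0 had an unadjusted p under 0.05 (limma); their median log2 change was -0.04. The 3 of lowest p were SFXN1, a mitochondrial serine carrier, at 0.21 ± 0.11 (SE; limma, Benjamini-Hochberg adjusted p = 0.591), SLC25A32, the mitochondrial folate carrier, at 0.19 ± 0.10 (adjusted p = 0.603), and TYMS, thymidylate synthase, at -0.16 ± 0.11 (adjusted p = 0.682). MTHFD2L, a mitochondrial relative of MTHFD2, was under the filter at 20.7 and 27.0 against 20.7 and 30.9. MTHFD1L was not analysed here. These counts leave out dimmer probe sets. One of SLC19A1 gave 0.33 ± 0.12 (limma, unadjusted p = 0.0219, adjusted p = 0.455), against 0.03 ± 0.13 by its brightest.

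Among 10 tested genes of proline, asparagine and glutamate metabolism 0 passed (limma), 1 had an unadjusted p under 0.05, and the median was -0.06. ALDH18A1, which makes the proline precursor upstream of PYCR1, gave -0.04 ± 0.10 (adjusted p = 0.940). A dimmer probe set of GLUL, outside these counts, gave 0.36 ± 0.15 (limma, unadjusted p = 0.0365, adjusted p = 0.496), against 0.07 ± 0.09 by its brightest. By the brightest probe sets the lowest p belonged to ASL, argininosuccinate lyase, at -0.23 ± 0.10 (limma, adjusted p = 0.526). GOT1, the cytosolic aspartate aminotransferase, gave -0.20 ± 0.10 (adjusted p = 0.590), and ASS1, argininosuccinate synthase, -0.16 ± 0.09 (adjusted p = 0.626; limma, Benjamini-Hochberg).

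Among 8 tested relatives of PCK2 in pyruvate, malate and citrate handling 0 passed, 0 had an unadjusted p under 0.05 (limma), and the median was -0.02. PKM, pyruvate kinase, gave -0.22 ± 0.10 (adjusted p = 0.565), the citrate carrier SLC25A1 -0.22 ± 0.10 (0.584) and the mitochondrial malate dehydrogenase MDH2 0.07 ± 0.10 (0.891; limma, Benjamini-Hochberg). PCK1, the cytosolic counterpart of PCK2, was under the filter, with signals of 9.82 and 3.68 in the MED1 samples against 1.04 and 8.15 in the controls. The groups overlapped at this low level, so the pair of carboxykinases could not be contrasted.

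Of the 8 genes of purine synthesis, which consumes formyl folate, 0 passed and 0 had an unadjusted p under 0.05 (limma), with a median of 0.01. These counts take the brightest probe set of each gene. A dimmer one of GART gave 0.54 ± 0.17 (limma, unadjusted p = 0.0125, adjusted p = 0.405), against 0.05 ± 0.09 by its brightest. PPAT, the first committed enzyme, gave 0.15 ± 0.10 (adjusted p = 0.662), GMPS -0.08 ± 0.09 (0.825) and PFAS -0.08 ± 0.10 (0.849; limma, Benjamini-Hochberg).

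**Figure D4:**
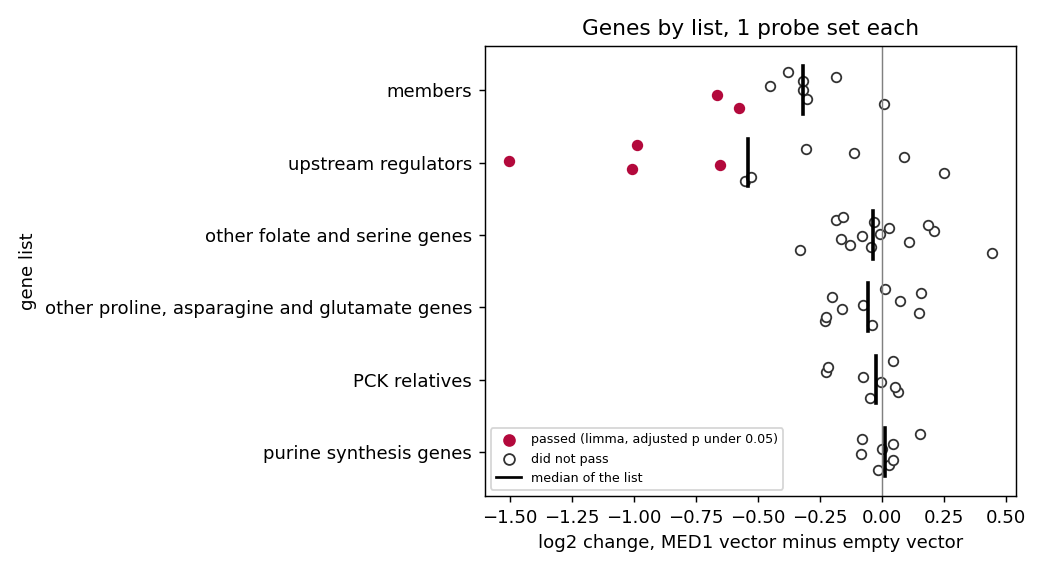
Log2 change of each tested gene, 1 probe set per gene, by list; filled points passed limma at an adjusted p of 0.05, open points did not, and vertical bars are list medians. The member median lies at -0.32 and that of the list labelled upstream regulators at -0.54, while the medians of the other 4 lists lie between -0.06 and 0.01.

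A list of transcription factors and stress regulators, labelled upstream regulators, was compared next, and whether its genes act on these enzymes was not tested. It was chosen with earlier results of these data known, so its p-values are a description. It held 10 tested genes, of which 4 passed as lower and 0 as higher (limma, Benjamini-Hochberg). Over all tested probe sets 0.188% passed as lower and 0.12% as higher. By the brightest probe sets 8 of the 10 lay below 0, and not all fell. ATF5 read higher in both MED1 samples, at 0.25 ± 0.12 (SE, limma adjusted p = 0.579). Another tested probe set of ATF5 gave -0.10 ± 0.17, and a dim, untested one 1.04. EIF2AK3 gave 0.09 ± 0.16 with overlapping groups. CEBPB, a C/EBP transcription factor, fell by 1.01 ± 0.09 (SE) on the log2 scale (adjusted p = 0.00248), the pseudokinase TRIB3 by 0.99 ± 0.09 (0.00265) and DDIT3, the stress factor CHOP, by 1.50 ± 0.15 (0.00402). CEBPG read 915 and 916 in the MED1 samples against 1454 and 1438 in the controls, and fell by 0.65 ± 0.09 (adjusted p = 0.0233). Its adjusted p was 0.0562 without empty vector replicate 1 and 0.100 without empty vector replicate 2 (limma). ATF4 itself read 6279 and 7944 against 10578 and 9798, without overlap, at -0.53 ± 0.13 (adjusted p = 0.245). With dim probe sets kept, or without the variance trend, 0 of these genes passed (limma), and 7 and 6 had an unadjusted p under 0.05. Under the same settings 1680 of 22215 and 1132 of 13329 probe sets had an unadjusted p under 0.05 (limma).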

How the data were processed

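The deposited table holds 1 linear MAS5 intensity per array for each probe set; MAS5 is named, without a version, per the submitters' processing notes, and the sources used here give no further steps. Every array had a mean of 500.2 after 2% of values were trimmed from each end, and no scaling was added. Arrays have no read depth, and their number limits the precision. Of 22277 probe sets 62 controls were left out, and 19064 of the other 22215 named 1 gene in the platform annotation. Signals were set to log2(value + 16), which understates changes of dim probe sets. Probe sets with a mean signal under the 40th percentile were left out, and 13329 were fitted with limma 3.58.1 in R 4.3.3 (lmFit, eBayes with an intensity trend, two-sided, Benjamini-Hochberg, threshold 0.05) on the 2 MED1 and 2 empty vector arrays. The fit was tested on simulated data, where false calls exceeded the nominal share. Differences of every size put in were missed in part, most often the smallest, of 1.5-fold. Smaller differences were not put in, so a gene that did not pass is not shown to be unchanged.

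The members and lists were chosen with earlier results of these data known. Every member is named. Of the other lists, passing genes are named, otherwise the 3 of lowest p, and a few fixed relatives; 1 of these relatives is not reported here. The labels do not say whether the duplicates were separate cultures, and the spread that p-values rest on may be technical. An exact permutation test of 2 arrays against 2 cannot go below a two-sided p of 0.333. Alternatives covered the pseudocount (1, 64), median centring, quantile normalization, the filter (none, the 60th percentile, or by mean log2 signal), the variance model, a replicate block, averaged probe sets and each array left out. Plots were drawn with matplotlib 3.10.9.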

Additional observations from a re-analysis of the deposited data

How the results depend on the processing

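The count of 41 passing probe sets was 0 with dim probe sets kept (limma; 1680 at an unadjusted p of 0.05), 7 without the variance trend, 230 with the replicate number as a block, and 25 to 215 with an array left out. A filter on the mean log2 signal, chosen after seeing the data, gave 39. With the block, 5 of the member genes passed in place of 2. The replicate numbers were not treated as pairing. Deviations of same-numbered samples correlated at 0.12 across the tested probe sets. With 2 arrays per group both pairs give the same value, so it cannot decide whether the samples were paired. The member median of -0.32 was -0.30 with median centring, -0.33 with quantile normalization and -0.42 to -0.32 on leaving out an array. The mitochondrial minus cytosolic difference of -0.02 was 0.15 with probe sets averaged and -0.0329 to 0.0977 with an array left out. The SHMT2 minus SHMT1 value of -0.85 was -1.56 with a pseudocount of 1 and -1.47 to -0.22 on leaving out an array. Of the 10 tested upstream regulators, 4 passed, 0 with dim probe sets kept, 0 without the trend (limma; 7 and 6 at an unadjusted p of 0.05) and 3 to 6 with an array left out. Calls in the other 4 lists stayed at 0 in every setting run for them, which left out the filter on the mean log2 signal. With an array left out, the lone sample was assumed to vary like the other group. Beyond the number of probe sets or arrays used, the cause was not tested. Without detection calls, dim probe sets such as that of SHMT1 have no known background.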

Other observations

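The genes nearest to ASNS and PCK2 in profile were found among 7950 genes outside the 10 members, by the Euclidean distance of centred log2 values over the 4 arrays. With 4 arrays many genes lie close, and the distances are a description. Nearest to ASNS were HERPUD1, an endoplasmic reticulum stress protein, at a distance of 0.0448, the tubulin-modifying enzyme TTLL1 at 0.0566 and the growth factor VEGFA at 0.0607. HERPUD1 read 2575 and 2768 in the MED1 samples against 3976 and 3854 in the controls. VEGFA read 1419 and 1479 against 2162 and 2033. Nearest to PCK2 were CEBPG at 0.0335, TMEM267 at 0.0401 and ZSCAN12 at 0.0660. Of these 6 genes CEBPG passed the threshold (limma, Benjamini-Hochberg), and the adjusted p of the others was 0.0502 to 0.323. The 6 were picked by their likeness to ASNS and PCK2, which were called on the same contrast, so these p-values are a description too. ASNS and PCK2 lay 0.113 from each other, and PSAT1 lay 0.153 from ASNS, the next nearest member. Other genes lay nearer: by distance from ASNS, PCK2 had rank 20 and PSAT1 rank 41, and ASNS had rank 9 from PCK2.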
